A study of Mus musculus with 12 samples.

Results

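The 5 libraries described here came from hearts of HKII+/+ mice, which carry both copies of the gene for hexokinase II. They were all the HKII+/+ libraries that the submitters had not marked as a potential outlier, 5 of 12 libraries in the series. The others were 1 marked HKII+/+ library (replicate 13), and 5 unmarked and 1 marked HKII+/- libraries, in which 1 copy of the gene is lost. Every mouse was a male C57BL/6J on chow, between 2 and 4 months old, and the labels name no transgene or treatment. No level is compared between genotypes below, and the unmarked HKII+/- libraries enter only to ask whether the most abundant, the variable and the steady genes of the HKII+/+ hearts were also so there. Each title is taken to stand for its own animal, since no label says so outright, so the SDs below measure the spread between these samples.

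The heart beats by sliding thick filaments of myosin along thin filaments of actin, which troponin and tropomyosin open to calcium. Calcium is released from the sarcoplasmic reticulum through the ryanodine receptor and pumped back by SERCA, which phospholamban restrains. The work is paid for mainly by fatty acid oxidation and oxidative phosphorylation in densely packed mitochondria. Many of these proteins exist in several forms made from separate genes, and adult rodent ventricle, atrium, fetal heart and skeletal muscle each favour a different form. A whole heart also holds vessels, fibroblasts, nerves, a mesothelial cover and attached fat, and in bulk RNA fewer cells of a type and less RNA per cell cannot be told apart.

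Deposited counts summed to 17263209 (replicate 18) to 35673165 (replicate 14) per library, and 16808 to 17709 of 24061 listed genes had a count above 0. Of these genes 12960 averaged at least 1 CPM (a count brought to a common library total, with TMM factors that align libraries on their shared genes). Between libraries the counts differed by more than sampling noise, with a chi-square per degree of freedom from 9.63 (replicates 17 and 18) to 47.9 (14 and 21), a measure that grows with depth. Across 12960 genes the correlation of log2 levels ran from 0.987 (replicates 14 and 21) to 0.9949 (15 and 17). The labelled tissue was borne by its defining genes in every library. Myh6 measured 39450 to 44281 CPM, Actc1 9108 to 10592 CPM, and Tnnt2 held 0.784% to 0.915% of all counts. The airway list, 7 genes of lung epithelium, summed to 1.03 to 1.96 CPM, and the hemoglobin genes Hbb-bs, Hbb-bt, Hba-a1 and Hba-a2 had 0 counts in all 5 libraries, while Alas2, the heme synthesis enzyme of red cells, measured 15.5 to 31.6 CPM. Of the 100-base windows of the hemoglobin transcripts, 54.8% (Hbb-bt) to 74.5% (Hba-a2) also occur in another gene's transcript, and the sources used here do not say how the counting treated such reads.

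A small set of genes made up a large share of the transcriptome. On average 439 ± 33.5 genes (SD, n = 5) held 50% of the counts of a library, and the 20 highest genes held 19.8% ± 0.86. The 102 genes with at least 1000 CPM held 32.6% of counts, the 1651 genes from 100 to 1000 CPM held 38.6%, and the 7238 genes from 10 to 100 CPM held 26.8%. A further 3969 genes lay between 1 and 10 CPM, and 5180 symbols had 0 counts in all 5 libraries. A count of 0 allows up to 3 counts, or 0.0816 CPM in the deepest and 0.174 CPM in the shallowest library, for counting error only.

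By share of counts, Myh6 stood highest on average. This gene encodes alpha-myosin heavy chain, the fast motor of the adult mouse heart, and lies on chromosome 14 from 54941921 to 54966927 of GRCm38 (ENSMUSG00000040752.16). It held 4.32%, 4.04%, 4.27%, 4.42% and 3.78% of counts in replicates 14, 15, 17, 18 and 21. It was first in 4 libraries and second in replicate 21. The gene above it there was Rn45s, the precursor of ribosomal RNA, at 2.23%, 3.03%, 3.46%, 3.30% and 4.19% in the same order. Poly(A) capture is meant to leave ribosomal RNA out. Atp2a2, which encodes SERCA, held 2.02% ± 0.066 and held rank 3 in all 5 libraries. Mb, for the oxygen store myoglobin, held 1.21% ± 0.050 and held rank 4 in all 5. Actc1, cardiac actin, held 1.02% ± 0.049 and held rank 5 in all 5.

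Below these ranks the order was loose. Of the 19 pairs of neighbours in the list of 20, 6 did not overlap over the 5 libraries and 13 did. Tpm1 (tropomyosin), Tnnt2 (troponin T), Atp5b (the beta subunit of ATP synthase) and Lpl (lipoprotein lipase) followed. Ttn, which encodes the giant spring titin, moved most in rank. It held 0.494%, 0.663%, 0.577%, 0.489% and 0.789% in replicates 14, 15, 17, 18 and 21, and its rank ran from 7 to 16. Malat1, a nuclear noncoding RNA, closed the list at 0.308% ± 0.048 and ranged from rank 17 to 23.

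Counts favour long transcripts, so levels were also divided by exon length and brought to a common total (TPM), a scale on which genes can be compared. Rn45s has no length in the annotation used and has no TPM. Myoglobin was then highest on average at 23041 ± 711 TPM (SD, n = 5), with 22568, 22018, 23553, 23568 and 23499 TPM in replicates 14, 15, 17, 18 and 21. Mb lies on chromosome 15 from 77015487 to 77050670, and 33.6% of its exon bases lie in another annotated gene. The part of this overlap in its level was not tested. Mir6236, a microRNA gene, overlapped Mb in level and was above it in replicates 17 and 21. Actc1 (18641 ± 925), Myh6 (18377 ± 895) and Tnnt2 (17645 ± 877) overlapped, so their order was not resolved. Myl3 and Myl2, the ventricular essential and regulatory myosin light chains, followed at 12235 ± 836 and 11751 ± 1016 TPM and overlapped as well. Tnni3, cardiac troponin I, measured 10548 ± 661 TPM and Atp2a2 10304 ± 422 TPM.

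**Figure D1:**
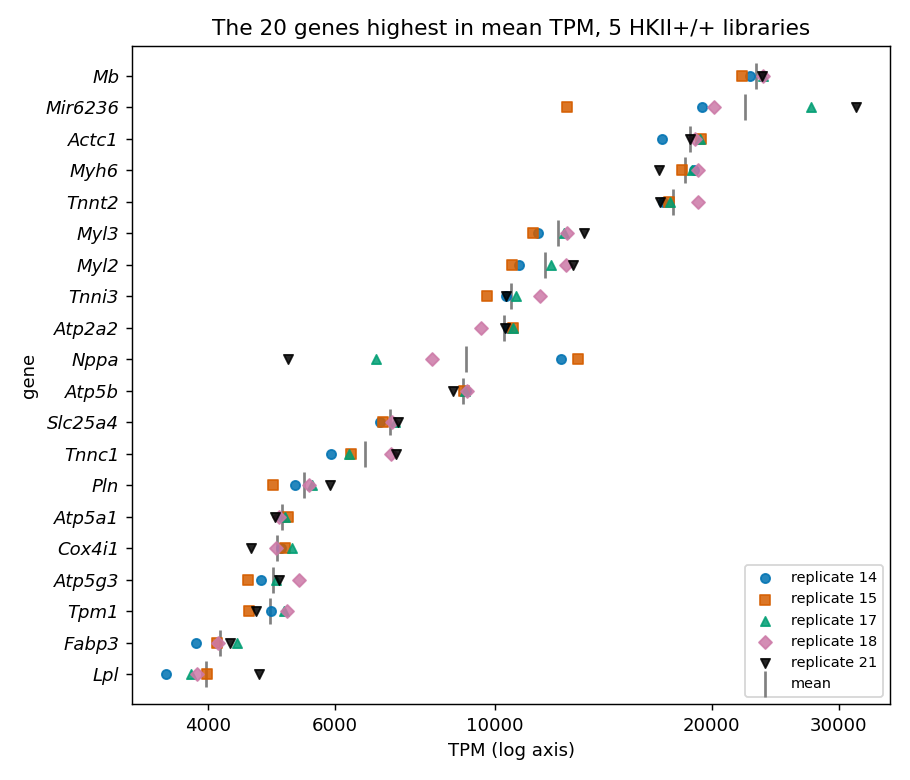
TPM (log axis) of the 20 genes with the highest mean TPM, one symbol per HKII+/+ library and a grey bar at the mean. Most genes lie within a narrow band, while Mir6236 runs from 12588 to 31692 TPM and Nppa from 5169 to 13048 TPM.

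Only 4 of the 19 neighbouring pairs in the TPM list did not overlap. Both lists shared 14 genes. The TPM list added small proteins whose transcripts are short, such as Tnnc1 (troponin C, 6601 ± 600 TPM), Atp5g3 (a subunit of the ATP synthase ring, 4924 ± 302 TPM) and Fabp3 (heart fatty acid binding protein, 4159 ± 205 TPM). Some mitochondrial members were tight. Atp5b measured 9115, 9065, 9099, 9165 and 8743 TPM in replicates 14, 15, 17, 18 and 21. Slc25a4, the carrier that trades ADP for ATP across the inner membrane, measured 7150 ± 174 TPM, and Atp5a1, the alpha subunit of ATP synthase, 5065 ± 83.8 TPM. Cox4i1, a subunit of cytochrome c oxidase, at 4994 ± 246 TPM, and Atp5g3 spread as widely as the filament genes. Of each list of 20, 19 genes also stood among the 20 highest of the 5 unmarked HKII+/- libraries.

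The second highest TPM belonged to Mir6236, a short microRNA gene on chromosome 9 (110281287 to 110281409). Its annotated mature sequence, from RefSeq on GRCm38.p6 (chr9:110281353-110281371, plus strand), is shown because its gene ranks beside myoglobin, with the seed in capitals.

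mmu-miR-6236: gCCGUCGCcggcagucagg

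A 100-base read cannot come from a mature microRNA, so the counts describe longer RNA over the gene and not the microRNA. Mir6236 measured 865, 554, 1261, 938 and 1488 CPM in replicates 14, 15, 17, 18 and 21. Rn45s measured 21614, 29824, 34749, 33067 and 43654 CPM, and Lars2, a mitochondrial leucyl-tRNA synthetase, 1419, 1542, 2304, 2242 and 2264 CPM. In all 3 genes replicates 17 and 21 were the 2 highest, and Rn45s and Lars2 were lowest in replicate 14. Lars2 was chosen after its values were seen. Whether reads of ribosomal RNA enter Mir6236 or Lars2 was not tested.

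Summed by function, the contractile apparatus took the largest share of any class listed. The sarcomere and Z-disc list of 33 genes held 11.95% ± 0.33 of counts (SD, n = 5), from 11.7% to 12.5%. The 80 nuclear-encoded genes of the respiratory chain held 4.65% ± 0.19. Calcium handling, 18 genes, held 3.46% ± 0.076, of which Atp2a2 alone was the main part. Energy transfer, with Mb, the creatine kinases and the adenine nucleotide carriers, held 2.49% ± 0.076. The TCA cycle list held 2.47% ± 0.027 and fatty acid uptake and oxidation 2.39% ± 0.091, led by Lpl, Cd36 (a fatty acid transporter) and Hadha (the trifunctional enzyme of beta-oxidation). Glycolysis held less, at 1.30% ± 0.046, led by Aldoa, Pkm and Pfkm. Cytosolic ribosomal proteins held 1.11% ± 0.038. The antioxidant enzymes held 0.361% ± 0.013.

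No symbol of the mitochondrial genome was among the 24061 listed, so the respiratory chain share covers nuclear genes only. Of 77 ribosomal protein genes, 73 averaged at least 10 CPM and 4 (Rpl26, Rpl30, Rps27 and Rpl34) lay under 1 CPM. Rpl26 had 0 counts in every library. Of the transcript windows, 23.1% of Rpl26, 21.3% of Rps27, 2.98% of Rpl30 and 2.82% of Rpl34 also occur in other genes. Their part in these low counts was not tested. Several metabolic lists differed little between hearts, with a median CV corrected for counting error of 0.032 for the TCA cycle, 0.037 for glycolysis and 0.058 for the respiratory chain, against 0.0604 for all genes with at least 10 CPM. The summed level of the highest library was 1.05 times that of the lowest for the TCA cycle list, 1.06 times for glycolysis and 1.12 times for the respiratory chain. The fatty acid list spread more, with a median of 0.061 and a ratio of 1.16. Single members departed from this. Cyc1, cytochrome c1 of complex III, measured 951, 1135, 1618, 1940 and 1158 CPM in replicates 14, 15, 17, 18 and 21, and Rps9, a small-subunit ribosomal protein, measured 239, 244, 346, 398 and 258 CPM. Replicates 17 and 18 were the 2 highest in both genes.

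Promoter sequences are shown for the 4 actin and myosin light chain genes that hold a CArG box, of which Actc1 and Myl3 are among the 20 highest in TPM and Acta1 and Myl7 among the variable genes. The light chain genes Myl2 and Myl4 have promoters in the table with no box in the 250 bases before the start and are not printed. Each line gives the 120 bases before the annotated start (RefSeq, GRCm38.p6, gene strand), with the CArG box, the element bound by serum response factor (CC, a run of A or T, and GG), in capitals.

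Actc1 (chr2:114052876-114052995, minus strand): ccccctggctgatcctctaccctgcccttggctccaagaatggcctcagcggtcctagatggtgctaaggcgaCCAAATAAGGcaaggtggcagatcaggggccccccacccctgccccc
Acta1 (chr8:123894776-123894895, minus strand): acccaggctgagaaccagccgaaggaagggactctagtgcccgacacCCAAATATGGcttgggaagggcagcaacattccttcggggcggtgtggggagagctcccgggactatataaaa
Myl3 (chr9:110763558-110763677, plus strand): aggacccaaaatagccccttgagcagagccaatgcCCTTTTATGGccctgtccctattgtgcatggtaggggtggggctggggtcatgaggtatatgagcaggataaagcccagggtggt
Myl7 (chr11:5898783-5898902, minus strand): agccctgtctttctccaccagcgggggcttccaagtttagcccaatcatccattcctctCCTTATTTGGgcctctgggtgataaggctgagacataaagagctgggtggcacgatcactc

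The box lies at bases -47 to -38 of Actc1, -73 to -64 of Acta1, -85 to -76 of Myl3 and -61 to -52 of Myl7, counted back from the annotated start. Over the 250 bases before a start, 7 of the 27 sarcomere genes with a promoter in the table held a CArG box (25.9%), against 1.62% of all 27025 genes and 1.54% of genes with at least 10 CPM. The other members with a box were Myom1, Ldb3 and Nebl. On either strand, the sequence CAGCTG was found in 29.6% of sarcomere genes, 14.7% of all genes and 14.4% of genes with at least 10 CPM. In the same order AGATAA was found in 22.2%, 11.4% and 6.92%, and TATAAA in 7.41%, 14.3% and 7.75%. For TATAAA the sarcomere genes were thus close to the genes with at least 10 CPM. A TATAAA inside a CArG box would count for both. A match describes these letters and is not a binding site measured here.

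The choice between related genes was examined in 41 groups of genes that encode alternative forms of one protein. In all 41 the same member was highest in each of the 5 libraries. Its share of the group's summed TPM was above 99% in 12 groups, 90% to 99% in 14, 60% to 90% in 14, and at or under 60% in 1. In the thin filament the cardiac form was close to exclusive for troponin I (Tnni3, 99.95% ± 0.011), troponin T (Tnnt2, 99.8% ± 0.011) and troponin C (Tnnc1). In the Z-disc the same held for alpha-actinin (Actn2, 99.95% ± 0.023). Myh6 made up 97.55%, 97.69%, 97.81%, 97.48% and 96.56% of myosin heavy chain in replicates 14, 15, 17, 18 and 21. Its slow counterpart Myh7, the beta-myosin of the fetal and stressed mouse heart, was at 2.00% ± 0.47. Myh6 and Myh7 share 687 windows of 100 bases, 11.4% of those of Myh6, and how reads from them were assigned was not tested.

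**Figure D2:**
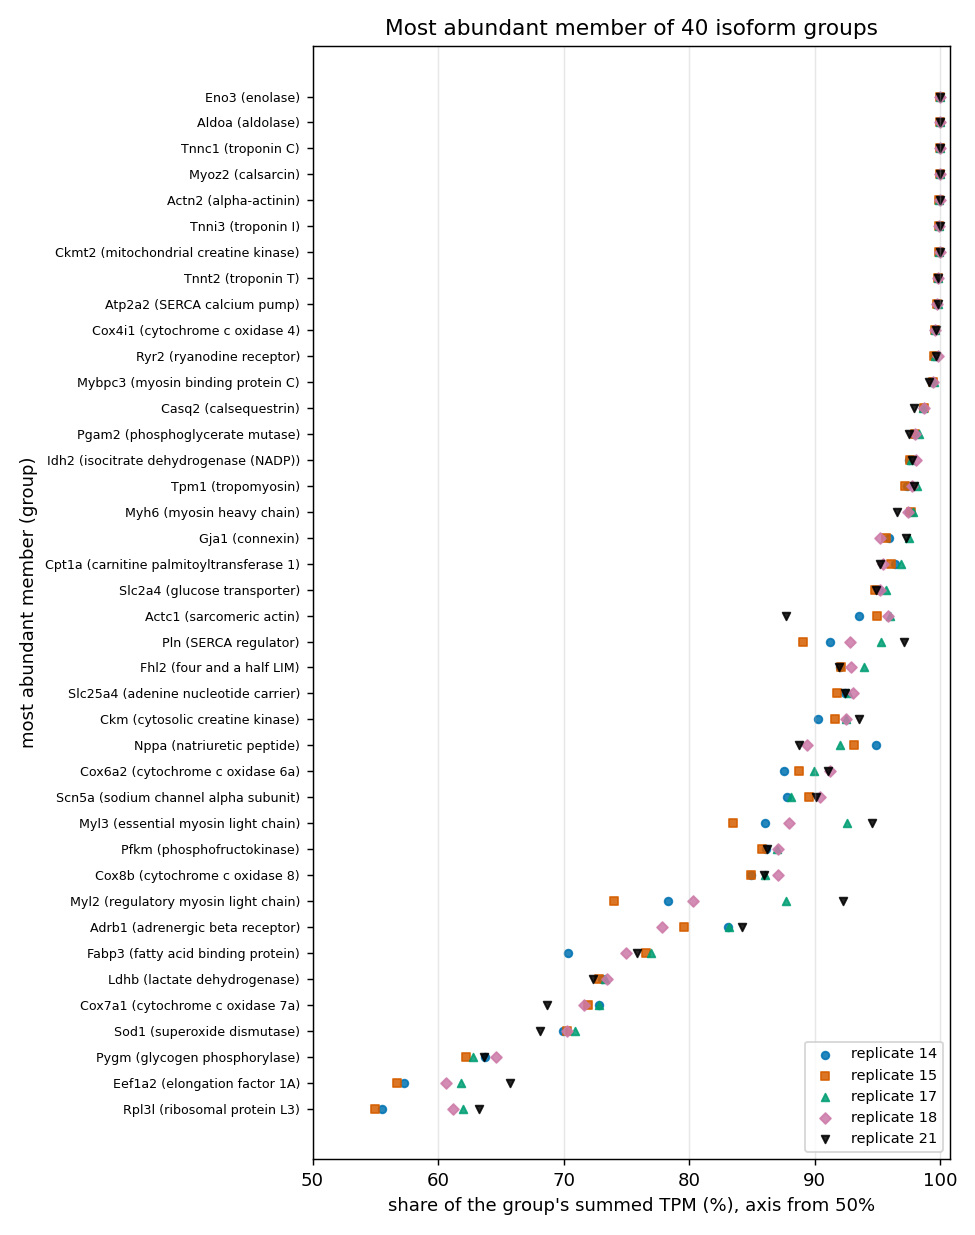
Share (%) of the summed TPM of each of 40 groups held by the most abundant member, one symbol per HKII+/+ library, with the axis starting at 50%. The share is above 99% in 12 groups, and Myl2 spreads from 74.0% to 92.2%.

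The shares of both ventricular myosin light chains varied most among the 40 groups plotted. Myl2, the ventricular regulatory light chain, made up 78.3%, 74.0%, 87.7%, 80.3% and 92.2% of its group in replicates 14, 15, 17, 18 and 21, with the atrial Myl7 as the remainder. Myl3 stood at 86.1%, 83.5%, 92.6%, 88.0% and 94.6% in the same order, against the atrial Myl4. Phospholamban (Pln) stood at 91.2%, 89.1%, 95.3%, 92.8% and 97.1% against sarcolipin (Sln), the atrial regulator of SERCA. In all 3 groups replicate 15 had the lowest ventricular share and replicate 21 the highest. The summed atrial list followed the opposite order, with 0.669%, 0.7102%, 0.381%, 0.487% and 0.274% of counts in replicates 14, 15, 17, 18 and 21. The list shares Myl7, Myl4 and Sln with these groups. How much atrium each sample held was not tested. Nppa, which encodes atrial natriuretic peptide, measured 12351, 13048, 6851, 8178 and 5169 TPM and was above Nppb, for B-type natriuretic peptide, in every library (91.6% ± 2.6 of their sum). Of the exon bases of Pln 59.6%, and of Nppa 61.5%, lie in another annotated gene, against 0% for Sln and Nppb. The part of this overlap in the levels and shares of Pln and Nppa was not tested.

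Cardiac actin made up 93.5%, 95.0%, 96.0%, 95.8% and 87.7% of sarcomeric actin in replicates 14, 15, 17, 18 and 21. The remainder was Acta1, the skeletal actin that is also expressed in the fetal and stressed heart. It measured 1179, 1016, 799 and 823 TPM in the first 4 libraries and 2612 TPM in replicate 21, which lay apart from them.

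In calcium transport 1 form prevailed, while in energy metabolism several groups were mixed. Atp2a2 held 99.8% of SERCA and Ryr2 99.6% of ryanodine receptor. Muscle creatine kinase Ckm held 92.1% ± 1.2 against the brain form Ckb, and Slc2a4, the insulin-responsive glucose transporter, 95.2% ± 0.33 against Slc2a1. Ldhb, the heart form of lactate dehydrogenase, held 73.0% ± 0.46. Glycogen phosphorylase was divided between the muscle form Pygm (63.4% ± 0.93) and the brain form Pygb (36.3% ± 0.91). The muscle-type forms of 3 cytochrome c oxidase subunits prevailed, with Cox6a2 at 89.7% ± 1.6, Cox7a1 at 71.6% ± 1.7 and Cox8b at 85.8% ± 0.88.

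Translation showed the least lopsided groups. Rpl3l, the muscle-specific form of ribosomal protein L3, held 55.5%, 54.99%, 62.0%, 61.2% and 63.3% of its group in replicates 14, 15, 17, 18 and 21, the rest being Rpl3. Eef1a2, the muscle and neuron form of elongation factor 1A, held 57.3%, 56.7%, 61.8%, 60.7% and 65.7% against Eef1a1. Both shares were highest in replicate 21 and lowest in replicate 15. Of the windows of Rpl3 50.5%, and of Eef1a1 26.7%, also occur in other genes, and the part of such reads in these shares was not tested.

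In 3 groups the form that prevails cannot be read, or changes, because of low counts or the choice of length. Cpt1b, the muscle form of carnitine palmitoyltransferase 1, had 415 counts over all 5 libraries against 15491 for Cpt1a, and 94.8% of its exon bases lie in another annotated gene. Eno1 had 1 count, with 59.0% of its windows shared. Neither group can be read as a choice of form, although both are among the 41. Sod1, the cytosolic superoxide dismutase, held 69.9% ± 1.0 by TPM but 20.99% of the group's counts, where the mitochondrial Sod2 held 72.8%. Length also moved shares in other groups without changing the major form. By counts Ldhb held 65.06%, Pygm 56.05%, Cox8b 79.8% and Myl2 90.7% of their groups. The SDs of the shares therefore do not cover the choice of length.

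The spread between hearts was described for the 8991 genes with at least 10 CPM on average. As a measure, the CV was reduced by the part that counting alone gives, and this count-adjusted CV had a median of 0.0604. In 834 genes the spread did not exceed counting error. A gene was called variable at a count-adjusted CV of at least 0.3, a limit set with the values in view, and 143 genes were, which is 1.59% of those examined. Cyc1 lay just under the limit at 0.299 and Acta2 just above it at 0.302. Of the 143, 47 stayed at or above 0.3 with every library left out in turn. Without replicate 21 alone, 54 of the 143 lay under 0.3. Without replicate 14 it was 28 genes, without 18 also 28, without 15 it was 12 and without 17 it was 4.

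**Figure D3:**
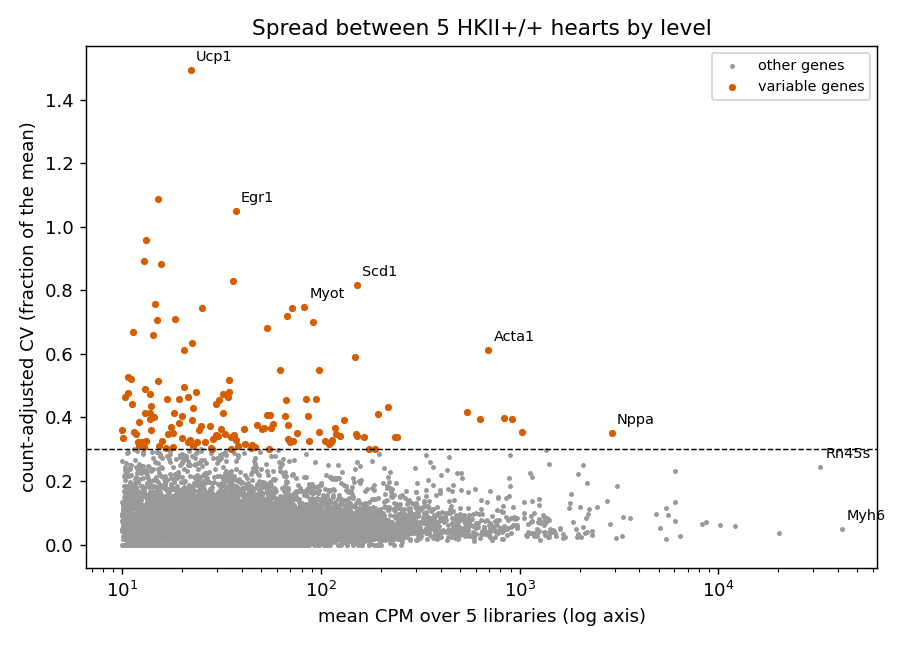
Count-adjusted CV over 5 HKII+/+ libraries against mean CPM (log axis) for 8991 genes, with the 143 variable genes in orange and a dashed line at 0.3. Ucp1 stands highest at 1.495, while Myh6 lies at 0.05 and Rn45s, at 0.25, under the line.

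Genes of fat led the variable genes. Ucp1, the uncoupling protein that makes brown fat warm, measured 80.7, 10.2, 12.1, 0.871 and 6.57 CPM in replicates 14, 15, 17, 18 and 21. Adipoq, the fat hormone adiponectin, measured 31.8, 14.9, 9.75, 1.97 and 6.23 CPM. Plin1, the coat protein of fat droplets, measured 38.6, 16.3, 12.6, 3.37 and 7.10 CPM. In these 3 genes replicate 14 was highest and replicate 18 lowest. Without replicate 14 each averaged under 10 CPM, so they passed the filter only through that library. Their count-adjusted CV without it was 0.66 for Ucp1, 0.66 for Adipoq and 0.58 for Plin1. Scd1, a fatty acid desaturase, followed the same extremes (359 and 51.4 CPM), as did Pck1, Car3, Cfd, Cidec, Cdo1, Hp and Prkar2b among the 20 most variable genes. Of the white fat list 5 of 6 members with at least 10 CPM were variable, Adipoq and Plin1 among them, against 1.59% of all genes. The sixth was Fabp4, which endothelium also expresses, at 385 to 506 CPM.

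Fat markers were not uniformly affected. Cidea, a brown fat droplet protein, measured 59.3 CPM in replicate 14 and 30.4 to 31.9 CPM in the others, and its count-adjusted CV without replicate 14 was 0. Cox8b, listed with brown fat but a heart subunit as well, measured 264 to 325 CPM. Leptin (Lep) measured 3.13 CPM in replicate 14 and 0.145 to 0.802 CPM elsewhere. How much attached fat each sample held was not tested.

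Immediate early genes, which are transcribed within minutes of a stimulus, held 14 variable genes among 20 with at least 10 CPM, against 1.59% of all genes. Egr1 measured 26.4, 106, 24.2, 12.4 and 16.8 CPM and Fos 4.92, 43.4, 14.02, 2.26 and 11.01 CPM in replicates 14, 15, 17, 18 and 21. Replicate 15 stood apart in both. Nr4a1, a nuclear receptor of the same class, divided the libraries otherwise, with 149.5, 141 and 120.3 CPM in replicates 15, 17 and 21 and 15.99 and 28.3 CPM in replicates 14 and 18. The list summed to 977 CPM in replicate 18, the lowest, and 1735 CPM in replicate 15. Jund, its second most abundant member, was steadier at 133 to 161 CPM. The median count-adjusted CV of the list was 0.33, against 0.0604 for all genes. Junb, Cyr61, Ier2, Dusp1 and Ctgf fell under 0.3 without replicate 15, and Nr4a3, Klf2 and Zfp36 without replicate 14. Fos, Egr1, Nr4a1, Atf3, Btg2 and Fosl2 stayed above 0.3 whichever library was left out.

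The atrial list held 10 variable genes among 11 with at least 10 CPM, against 1.59% of all genes. Its summed level differed 2.44-fold between replicates 15 and 21. Without replicate 21 the ratio was 1.83. Its median count-adjusted CV was 0.35. Myl7 measured 639.7, 783, 369, 686 and 244 CPM in replicates 14, 15, 17, 18 and 21. Sln measured 242, 285, 136, 214 and 88.9 CPM and Nppa 3872, 4035, 2211, 2681 and 1707 CPM. In all 3 genes replicate 15 was highest and replicate 21 lowest. Without replicate 21 each lay just under the limit, at 0.29 for Myl7, 0.28 for Sln and 0.28 for Nppa. Every other variable member of the list except Bmp10 was then also under the limit. These values ran from 0.19 for Sbk2 to 0.296 for Dkk3. Bmp10, an atrial growth factor, departed from this. It measured 206, 197, 204 and 138 CPM in replicates 14, 15, 17 and 21 and had 0 counts in replicate 18, whose Myl7 was the second highest. Without that library its count-adjusted CV was 0.17.

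Several genes of muscle stress and structure were highest in replicate 21. The summed CPM of the cardiac stress list was also highest there, at 8357 CPM, although its share of counts was not. Of its 10 members 6 were highest there (Acta1, Ankrd1, Xirp2, Myh7, Mybpc2 and Postn), while Nppa and Ctgf were lowest there, at 1707 and 140.5 CPM, and the list's share of counts was 0.802%, against 0.825% in replicate 15. Acta1 measured 618, 525, 431 and 451 CPM in replicates 14, 15, 17 and 18 and 1442 CPM in replicate 21. Myot, a Z-disc protein, measured 45.4 to 63.4 CPM in those 4 and 191 CPM in replicate 21. Xirp2, an actin-binding protein of the intercalated disc, measured 678 to 813 CPM and 1558 CPM. Hspb7, a small heat shock protein of muscle, measured 1726 to 2048 CPM and 2992 CPM. Ankrd1, a stress-induced titin-binding protein, measured 1040 to 1457 CPM and 1983 CPM, and Myh7 730 to 872 CPM and 1194 CPM. Without replicate 21 the count-adjusted CV was 0.16 for Acta1, 0.14 for Myot and 0.09 for Xirp2. Mt2 (a metallothionein) and Ddit4, a stress-induced inhibitor of mTOR, were also highest in replicate 21, at 47.7 and 146 CPM. Replicate 21 also had the highest share of Rn45s and the lowest sum of the atrial list, and their part in these values was not tested. In all, 53 of the 143 variable genes (37.1%) were highest in replicate 21, as were 33.5% of all 8991 genes.

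**Figure D4:**
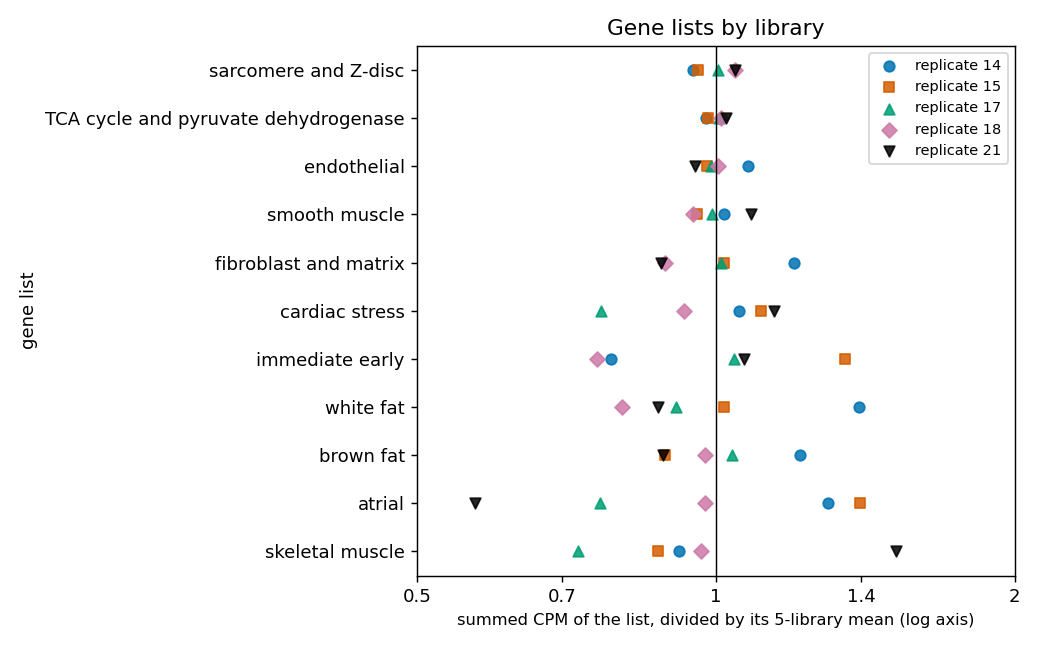
Summed CPM of 11 gene lists in each HKII+/+ library, divided by the list's mean over the 5 libraries (log axis). The TCA cycle list stays within a 1.05-fold range, while the atrial list spans 2.44-fold and the skeletal muscle list 2.09-fold.

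Other cell types gave smaller or sparser differences. Endothelial genes summed to 2015 to 2278 CPM, led by Eng, Kdr and Cdh5, and 0 of 12 were variable, which at the 1.59% of all genes does not set them apart. The fibroblast and matrix list summed to 3482 to 4748 CPM, and its 1 variable member was Eln (elastin), at 200, 163, 127, 78.8 and 86.0 CPM. Of 10 smooth muscle genes 3 were variable, namely Acta2, Tagln and Cnn1, with Acta2 at 237, 198, 192, 104 and 138 CPM, highest in replicate 14 and lowest in 18. The sum of that list is carried by Des, which cardiomyocytes also express. Lymphocyte genes summed to 34.5 CPM in replicate 15 and 2.56 to 12.3 CPM in the others. In replicate 15 Igj measured 13.2 CPM and Cd79b 5.28 CPM, both genes of the B cell lineage. In the skeletal muscle list Myh4, Myh1 and Myh2 lay under 0.5 CPM in every library, and its sum is mostly Mybpc2.

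Clock, fasting and interferon genes held a few variable members each, where 1.59% of all genes with at least 10 CPM were variable. Per1, a repressor of the circadian clock, measured 77.6, 153, 215, 125 and 180.1 CPM in replicates 14, 15, 17, 18 and 21, and Per2, of the same family, 28.4, 33.1, 46.4, 55.8 and 59.3 CPM. Both were lowest in replicate 14, and the other 14 clock genes examined lay under the limit. In the fasting list 4 of 14 were variable, against that 1.59%. Cdkn1a, a cell cycle inhibitor, measured 54.4 CPM in replicate 21 and 18.5 to 29.8 CPM elsewhere, and Fkbp5, a glucocorticoid-induced chaperone partner, 50.8 CPM there and 22.2 to 30.9 CPM elsewhere. Angptl4, a secreted inhibitor of lipoprotein lipase, was higher in replicates 14 and 15 (21.9 and 19.1 CPM) than in the other three (8.24 to 10.9 CPM). Pdk4, which holds back pyruvate oxidation, measured 683, 1141, 752, 691 and 1191 CPM and was just under the limit at 0.28. Of 14 interferon genes Gbp6 and Igtp were variable, with Gbp6 at 18.3, 30.6, 20.03, 27.6 and 51.2 CPM.

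Among the 20 most variable genes that belong to no list, Adamts8, a secreted protease, measured 17.1, 21.2, 4.73, 9.11 and 4.20 CPM in replicates 14, 15, 17, 18 and 21. Zbed6, a repressor of Igf2 in muscle, measured 6.88, 18.7, 14.1, 4.18 and 30.8 CPM. Lrrn4, the 1 variable gene of the mesothelial list, measured 16.8, 15.9, 12.8, 9.75 and 5.26 CPM. Adamts8 and Lrrn4 were lowest in replicate 21, where Zbed6 was highest.

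Many variable genes also spread widely in the other genotype. Of the 143, 72 (50.35%) reached a count-adjusted CV of 0.3 among the 5 unmarked HKII+/- libraries, against 2.09% of all 8991 genes there. These 72 were 38.3% of the 188 genes at that spread in those libraries. Among fat genes the values were 1.03 for Ucp1, 0.98 for Adipoq and 1.01 for Plin1, and among atrial genes 0.92 for Myl7 and 0.79 for Nppa. Each of these fat and atrial genes was lowest in HKII+/- replicates 19 and 22. Myl7 measured 720, 680, 19.9, 946 and 0.497 CPM in HKII+/- replicates 12, 16, 19, 20 and 22. Ucp1 measured 25.1, 10.6, 0, 18.85 and 0 CPM in the same order. Of the genes named above as highest in HKII+/+ replicate 21, Acta1 had a count-adjusted CV of 0.26 among the HKII+/- libraries and Myot of 0.18. Mt2 was at 0.29 and Xirp2 at 0.07, but Ddit4 at 0.58. Egr1 and Fos were at 0.36 and 0.41. Of the 143 genes, 50 stood in at least 1 list examined and 93 in none, among them Cyp26b1, a retinoic acid hydroxylase, at 2.77, 20.5, 52.0, 34.5 and 16.2 CPM.

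Steady genes were sought among the 1753 with at least 100 CPM, where the median CV was 6.20%. A gene was called steady at a CV under 0.05, and 631 genes were, which is 36.0% of those examined. Trpc4ap, an adaptor of a ubiquitin ligase, was the steadiest with 161, 161, 162, 159 and 162 CPM in replicates 14, 15, 17, 18 and 21 (CV 0.76%). Dennd5a, a regulator of membrane traffic, had a CV of 0.82%, Ankrd11, a chromatin regulator, 0.86%, Bag6, a chaperone, 1.02%, and Kpnb1, which imports proteins into the nucleus, 1.06%. The 20 steadiest genes lay between 105 and 252 CPM, and 19 of them had a spread that did not exceed counting error. Steadiness recurred little more than for genes at large. Of the 631, 160 (25.4%) were also steady in the HKII+/- libraries, against 22.5% of all 1753.

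Genes commonly used as references in expression assays differed among themselves. Pgk1, a glycolytic kinase, measured 202, 196, 201, 200 and 202 CPM (CV 0.013) and was itself among the 20 steadiest genes. Sdha (0.024), Gapdh (0.025) and Rpl32 (0.029) were also low in CV. Gapdh measured 1338, 1382, 1383, 1434 and 1375 CPM. At the other end Tfrc, the transferrin receptor, measured 138, 128, 154, 66.5 and 82.4 CPM and was the only reference gene called variable, and without replicate 18 it was under the limit at 0.24. B2m had a CV of 0.195, and Actb, the cytoskeletal actin, of 0.115 with its lowest value of 261 CPM in replicate 21. Among the HKII+/- libraries the count-adjusted CV was 0.067 for Pgk1, 0.10 for Sdha and 0.18 for Gapdh. The median there was 0.069 over the 8991 genes examined for spread.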

How the data were processed

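Heart RNA was purified with QIAzol and RNeasy, captured by poly(A) and sequenced as single-end reads of 100 nt, per the labels' protocols. The authors deposited whole-number counts per gene symbol, without normalisation. STAR 2.4.0, featureCounts 1.4.4 and GRCm38 (mm10) are named in the submitters' processing notes, while for strand setting, annotation release and reads with several matches the answer is: not given in the sources used here. Groups came from the titles. TMM factors (edgeR 4.0.16, R 4.3.3) scaled CPM over the 5 libraries. TPM used the union of exons in GENCODE vM21 (basic set), to which 22747 symbols matched directly, 933 through an older symbol, 18 among several genes and 363 not at all. No test between groups was made, and single libraries were screened with Dixon's criterion: ranks, shares, CV and count-adjusted CV are descriptions over 5 libraries. The calculation of spread was tested on simulated data. Named genes are the 20 highest by TPM and by counts, all isoform groups, the 20 most variable and 20 steadiest genes, the reference genes, and of each of 30 lists the 3 most abundant and 3 most variable members. Lars2, Alas2, the hemoglobin genes, the near-absent ribosomal protein genes and the skeletal myosins fall outside it and were picked with their values in view. Members, lists and thresholds were chosen with earlier results of these data known. Some genes of these lists, and 1 isoform group, are not reported here. DESeq2 1.42.0 gave alternative size factors. The depth limits low genes only, and the small number of libraries limits every spread.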

Additional observations from a re-analysis of the deposited data

Results flagged for a closer look

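Of 130 sets of 5 values examined (list sums, the highest genes, the most variable genes and isoform shares), 14 had a library far from the other 4 by Dixon's criterion. Chance flags about 1 set in 20, but that rate does not apply to the 20 most variable genes, which were chosen for their spread between these libraries and gave 6 of the 14, and the sets overlap in genes. Replicate 21 was the distant library in 8 of them. The reference genes summed to 6360 CPM there, against 6670 CPM in the nearest library. Atp5b was lowest there at 8743 TPM. Myot was highest there at 191 CPM, as was Mt2 at 47.7 CPM. In the same library the share of its group was lowest for Myh6 (96.56%), Casq2 (97.96%), Cox7a1 (68.72%) and Eno3 (99.9977%), the last in a group that cannot be read as a choice of form.

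Replicate 14 was far above the others in Ucp1 (80.7 CPM, nearest 12.1) and in Prkar2b (34.9 CPM, nearest 11.2), a regulatory subunit of protein kinase A. Replicate 15 was far above them in Egr1 (106 CPM, nearest 26.4) and Fos (43.4 CPM, nearest 14.02). Replicate 18 was highest in Tnnt2 (19156 TPM, nearest 17522) and lowest in Atp2a2 (9579 TPM, nearest 10326).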

How the results depend on the processing

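No paired analysis was possible because no comparison between groups was made and the replicate numbers do not recur between genotypes. With each of the 5 libraries left out in turn, variable genes numbered 100 to 183 and steady genes 594 to 905, with 100 and 905 both reached without replicate 21. Adding the marked replicate 13 gave 2942 variable genes and 68 steady genes. Of those variable genes 3.67% were at that spread in HKII+/- libraries, against 2.09% of the 8991 genes examined without replicate 13. With that library 397.8 genes held 50% of counts and the 20 highest genes held 21.4%. Shares were then 13.7% (sarcomere), 3.28% (calcium handling), 2.28% (fatty acids), 2.396% (TCA cycle), 1.38% (glycolysis) and 1.19% (ribosomal proteins). Without Rn45s, an alternative chosen after seeing the data, the values were 493.4 genes, 17.4% in the 20 highest, 12.35% (sarcomere), 3.58% (calcium handling), 2.56% (TCA cycle) and 2.58% (energy transfer).

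A filter at 1 CPM gave 465 variable genes among 12960. A filter at 50 CPM, which leaves fewer genes than 8991, gave 52. With the filter unchanged, edgeR's tagwise dispersion gave 60. For steady genes a filter at 10 CPM gave 2455 among 8991, a smaller share than 631 among 1753 at 100 CPM. Scaling by library total left 148 variable genes, of which 59.5% were at that spread in HKII+/- libraries. The major form reversed in 1 group, where Sod1 held 20.99% by counts without length and 37.2% with exons of the whole annotation, a length also chosen after seeing the data. The lymphocyte ratio of highest to lowest library was 13.5, 4.81 without replicate 15 and 8.14 without replicate 21, and the skeletal muscle ratio was 1.33 without replicate 21. Causes of these shifts were not tested beyond the construction of each alternative.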
